A study of Homo sapiens with 11 samples.

Results

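The peaks described here are the regions marked by H3K4me1, the single methylation of lysine 4 on histone H3, in the human Ewing sarcoma cell line SKNMC (also written SK-N-MC). Members were all entries of the authors' H3K4me1 peak list, 31247 of the 134925 peaks in the 9 lists of the series (23.2%). The cells were labelled wildtype, were grown without treatment named in the labels, and gave 1 chromatin immunoprecipitation (ChIP-seq) sample for each of 9 targets. Beside H3K4me1 the targets were H3K27ac, H3K4me3, H3K27me3, FLI1, and the NuRD subunits HDAC2, MTA2, RBBP4 and CHD4, the last through a Flag tag, about which the labels say no more. The 2 input samples were not analysed here. Chromatin was cross-linked with ChIP Cross-link Gold and formaldehyde. SKNMC is an established line that carries the EWSR1::FLI1 fusion, so the peaks describe 1 line, and with 1 list per target no value below has a replicate error or a test. Bracketed ranges after a share are Wilson 95% limits and hold the error of counting peaks alone. The depth in reads is unknown.

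H3K4me1 is placed mainly by the methyltransferases KMT2C and KMT2D and is known as a mark of enhancers. It covers enhancers that are active, where H3K27ac is found beside it, and enhancers that are only primed, where it stands without acetylation. Start sites of active genes carry H3K4me3 in its place, and H3K27me3 marks chromatin silenced by Polycomb. In Ewing sarcoma the fusion protein binds GGAA repeats and opens enhancers there, and NuRD is a nucleosome remodelling and deacetylase complex.

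The letters of a few start sites are shown first, because the contrast between start sites with H3K4me1 and those with H3K4me3 could be seen in the sequence itself. Each run is the 250 bases before an annotated start, 5′ to 3′, from RefSeq (GRCh38.p14), with the dinucleotide CG in capitals. The first 6 come from the promoter windows (250 bases before to 50 after a start) that overlapped H3K4me1 and no H3K4me3, taken by the highest H3K4me1 fold enrichment, which is the pile-up at a peak's summit over its local background. They are annotated starts of PLXNC1, a semaphorin receptor (chr12:94262369-94262618, plus strand), and SVIL, an actin-binding supervillin (chr10:29634972-29635221, minus strand). Next are CROCC2 (chr2:240906086-240906335, plus strand) and SH3BP2, an adaptor of immune and bone cell signalling (chr4:2812041-2812290, plus strand). The last are LY6G6D (chr6:31715098-31715347, plus strand) and PLXNB2, another semaphorin receptor (chr22:50301670-50301919, minus strand). A gene can have several annotated starts, with 22077 windows for 15742 genes. Whether those shown are the main starts of their genes was not determined.
PLXNC1: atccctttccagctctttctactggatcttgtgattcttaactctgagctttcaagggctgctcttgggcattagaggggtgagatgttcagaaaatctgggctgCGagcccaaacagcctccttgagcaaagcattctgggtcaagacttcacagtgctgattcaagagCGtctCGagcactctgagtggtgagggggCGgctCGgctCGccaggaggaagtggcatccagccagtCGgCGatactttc
SVIL: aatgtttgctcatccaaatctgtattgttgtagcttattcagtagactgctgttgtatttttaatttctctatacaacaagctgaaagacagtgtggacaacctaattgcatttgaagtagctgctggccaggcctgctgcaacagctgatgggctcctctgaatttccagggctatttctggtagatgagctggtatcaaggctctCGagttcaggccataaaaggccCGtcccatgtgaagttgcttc
CROCC2: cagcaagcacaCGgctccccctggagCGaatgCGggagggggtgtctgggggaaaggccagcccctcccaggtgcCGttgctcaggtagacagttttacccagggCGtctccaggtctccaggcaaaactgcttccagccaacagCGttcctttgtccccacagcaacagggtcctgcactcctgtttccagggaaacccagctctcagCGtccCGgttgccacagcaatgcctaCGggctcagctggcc
SH3BP2: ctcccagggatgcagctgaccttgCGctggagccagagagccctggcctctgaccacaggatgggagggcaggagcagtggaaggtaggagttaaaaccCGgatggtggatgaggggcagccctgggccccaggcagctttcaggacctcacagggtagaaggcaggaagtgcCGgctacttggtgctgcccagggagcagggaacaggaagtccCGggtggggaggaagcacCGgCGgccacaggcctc
LY6G6D: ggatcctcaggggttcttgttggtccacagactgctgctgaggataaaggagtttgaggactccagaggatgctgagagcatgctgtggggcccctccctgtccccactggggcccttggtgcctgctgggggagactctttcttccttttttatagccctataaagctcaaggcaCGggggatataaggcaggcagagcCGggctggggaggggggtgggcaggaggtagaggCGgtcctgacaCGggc
PLXNB2: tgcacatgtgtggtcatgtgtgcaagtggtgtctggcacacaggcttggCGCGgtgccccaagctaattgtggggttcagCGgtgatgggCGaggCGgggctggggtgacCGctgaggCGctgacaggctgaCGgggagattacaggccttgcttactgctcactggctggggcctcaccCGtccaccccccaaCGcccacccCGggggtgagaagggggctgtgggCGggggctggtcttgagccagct
The H3K4me1 peaks that overlapped these windows had fold enrichments of 11.1 (PLXNC1), 11.05 (SVIL), 10.99 (CROCC2), 10.9 (SH3BP2), 10.6 (LY6G6D) and 10.5 (PLXNB2). For contrast stand the starts of TPI1, a glycolytic enzyme (chr12:6867281-6867530, plus strand), and NDUFAB1, a mitochondrial acyl carrier protein (chr16:23596317-23596566, minus strand). They had the highest H3K4me3 fold enrichments, 47.2 and 46.1, among starts without H3K4me1, and were added after the data were seen.
TPI1: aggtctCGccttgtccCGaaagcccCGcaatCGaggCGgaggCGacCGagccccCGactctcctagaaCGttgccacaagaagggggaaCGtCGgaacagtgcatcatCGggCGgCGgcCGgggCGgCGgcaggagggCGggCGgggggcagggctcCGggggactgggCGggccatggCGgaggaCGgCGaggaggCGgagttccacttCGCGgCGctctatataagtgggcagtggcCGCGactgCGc
NDUFAB1: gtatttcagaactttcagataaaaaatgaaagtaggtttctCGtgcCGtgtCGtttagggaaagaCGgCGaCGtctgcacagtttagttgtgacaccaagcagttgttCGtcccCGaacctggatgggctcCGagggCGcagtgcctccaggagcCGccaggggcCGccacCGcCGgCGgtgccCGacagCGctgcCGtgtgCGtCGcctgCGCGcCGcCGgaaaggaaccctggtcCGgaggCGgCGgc
The 6 starts whose windows overlapped H3K4me1 held 2 to 12 CG pairs in 250 bases. There were 2 in SVIL, 4 in LY6G6D, 6 in SH3BP2, 8 in PLXNC1, 9 in CROCC2 and 12 in PLXNB2. In SVIL and CROCC2 the H3K4me1 peak reached into the window but not to the start itself. TPI1 held 31 and NDUFAB1 27. These examples were picked by highest fold enrichment, so their counts do not stand for all starts, which follow.

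Over all start sites the same contrast was present. Promoter windows of 300 bases were available for 22077 distinct starts. Of these, 304 (1.38%) overlapped H3K4me1 and no H3K4me3, 11645 (52.7%) overlapped H3K4me3 and no H3K4me1, 50 overlapped both marks and 10078 neither. Counting H3K4me1 within 1 kb of the window gave 518 in place of 304. The windows with H3K4me1 held a median of 5 CG pairs (quartiles 3 and 8.25), against 28 (21 and 35) with H3K4me3 and 7 (3 and 20) with neither mark. The ratio of observed to expected CG, which corrects for the content of C and G, had a median of 0.25 (0.168 and 0.354) with H3K4me1. It was 0.858 (0.74 and 0.963) with H3K4me3 and 0.359 (0.183 and 0.699) with neither. Windows with H3K4me1 had a lower median and upper quartile than unmarked windows, though the quartile ranges overlapped. The quartile range with H3K4me1 lay below that of the H3K4me3 windows. H3K27ac overlapped 34.9% of the windows with H3K4me1, 56.04% of those with H3K4me3 and 1.28% of those with neither. The TATA letters TATAAA, on either strand, were found in 16.4% of the H3K4me1 windows, 4.63% of the H3K4me3 windows, 14.9% of those with neither mark and 9.50% of all windows, so the H3K4me1 windows were close to the unmarked ones. GGAAGGAA, a pair of the units to which the fusion binds in repeats, was found on either strand in 5.59% of the H3K4me1 windows, 3.13% of the H3K4me3 windows, 4.34% of those with neither mark and 3.71% of all windows. CCAAT was found in 24.7% of the H3K4me1 windows, 35.4% of the H3K4me3 windows, 34.2% of those with neither mark and 34.7% of all windows.

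Height is given as the deposited fold enrichment of a peak and width as the length of its interval. Fold enrichment had a median of 5.99 (quartiles 5.12 and 7.005) and ran from 2.20 to 15.2. Width had a median of 570 bp (400 and 879) and ran from 142 to 7633 bp, and the list covered 22.998 Mb. H3K4me3 peaks had a median fold enrichment of 16.2 and a median width of 1200 bp, and H3K27ac peaks 7.45 and 598 bp. Fold enrichments of separate antibodies are given side by side and not compared. Higher peaks were wider, with a median of 481 bp in the lowest of 5 equal groups (quintiles) by fold enrichment and 861 bp in the highest quintile. Of the highest quintile, 76.8% were wider than the median of the list. The rank correlation of height and width across the 31247 peaks was 0.316, and all of them share 1 library.

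Most H3K4me1 peaks lay far from the starts of genes. Within 1 kb of a start were 1522 peaks, or 4.87% (4.64 to 5.12), and 288 of them covered a start. A further 3507 lay 1 to 5 kb away, 6359 lay 5 to 20 kb away, 11531 lay 20 to 100 kb away, 7158 lay 100 to 500 kb away and 1167 lay farther still. The bodies of protein-coding genes held 18748 peaks, with Wilson limits of 59.5% and 60.5%. Exons and introns were not told apart here. The median distance to the nearest start was 36.3 kb for H3K4me1, 4.19 kb for H3K27ac, 28.6 kb for CHD4 and 57.9 kb for FLI1. The median for H3K4me3 was 0 kb. Median fold enrichment was 6.16 for peaks over a start, 5.78 for others within 1 kb, 6.07 at 20 to 100 kb and 5.97 beyond 500 kb. The quartiles of these distance classes overlapped widely. Peaks over a start were wider, with a median of 788.5 bp against 530 bp for others within 1 kb. What stood beside the peaks did vary with distance. H3K27ac overlapped 46.9% of those over a start and 26.1% of those 20 to 100 kb away. H3K4me3 overlapped 8.33% of those over a start, 18.6% of others up to 1 kb away, 8.87% at 1 to 5 kb and 1.35% at 5 to 20 kb. CHD4 overlapped 10.6% up to 1 kb and 20.8% at 100 to 500 kb.

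Around starts with H3K4me3 the H3K4me1 list showed a hollow with low shoulders. At 8574 starts with both H3K4me3 and H3K27ac within 1 kb, H3K4me1 covered 0.397% of the start positions themselves. Coverage reached 3.48% at 1000 bp upstream and 3.196% at 3700 bp downstream. It was 1.61% at 5 kb upstream and 2.82% at 5 kb downstream, on the side of the gene body. At 4057 starts with H3K4me3 and no H3K27ac the values were 0.173% at the start and at most 1.13% upstream and 1.38% downstream. Starts with neither mark had 0.974% at the start and at most 1.48% upstream. The 203 starts with H3K27ac and no H3K4me3 within 1 kb differed from these, with H3K4me1 over 34.5% of the starts and 44.8% at 500 bp upstream. The plot of coverage around starts shows the first 3 of these groups.

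**Figure D1:**
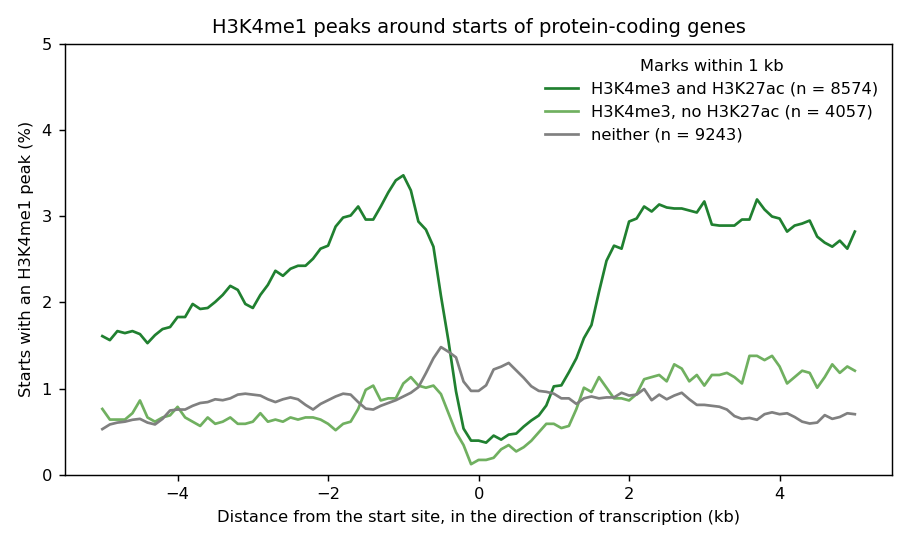
Share of start sites (vertical axis, %) with an H3K4me1 peak at each distance from the start (horizontal axis, kb, in the direction of transcription), for starts with H3K4me3 and H3K27ac, with H3K4me3 and no H3K27ac, and with neither within 1 kb. Both H3K4me3 groups are lowest within about 100 bp of the start, and the highest shoulder, 3.48%, lies 1000 bp upstream where both marks are present.

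A hollow between higher shoulders lay at the summits of FLI1 and NuRD peaks away from starts. At 1428 FLI1 summits over 1 kb from a start, H3K4me1 covered 2.17% of the summits, 42.6% of the positions 700 bp to either side, and 6.37% to 6.44% at 5 kb. MTA2, a scaffold subunit of NuRD, had 14.3% at 9501 such summits and 45.5% to 45.9% at 500 bp. CHD4, the remodelling ATPase of NuRD, had 15.4% at the summit and 38.7% to 39.0% at 500 bp. The deacetylase HDAC2 had 12.54% and 36.9% to 37.3%. RBBP4, a histone-binding subunit that other complexes also contain, had 8.92% and 36.3%. H3K27ac differed in shape, since its 12524 distal summits were covered in 47.4%, more than any position beside them. At distal H3K27me3 summits H3K4me1 coverage stayed at or below 0.695%. FLI1 thus had the lowest share at the summit and the most distant shoulders of the 5 proteins. These curves were read side by side and their differences were not tested.

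**Figure D2:**
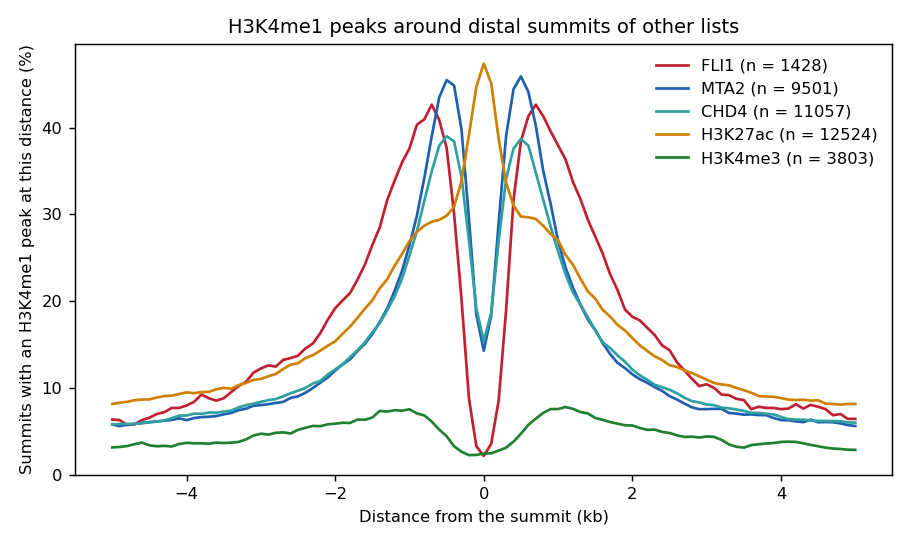
Share of summits of 5 other lists, all over 1 kb from a start (vertical axis, %), with an H3K4me1 peak at each distance from the summit (horizontal axis, kb). FLI1 runs from 2.17% at the summit to 42.6% at 700 bp, MTA2 and CHD4 peak at 500 bp, and H3K27ac is highest, 47.4%, at its own summit.

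Single sites were sorted by whether H3K4me1 peaks lay on both sides of the summit, within 2 kb. Of 1561 FLI1 summits, 636 or 40.7% (38.3 to 43.2) had H3K4me1 on both sides, 410 on 1 side, 483 on neither, and 32 lay inside an H3K4me1 peak. MTA2 summits were flanked on both sides in 24.5% (23.7 to 25.2), CHD4 in 23.7% (22.98 to 24.4), RBBP4 in 20.2% (19.6 to 20.9) and HDAC2 in 16.0% (15.5 to 16.5). H3K27ac summits were flanked in 5.97% and lay inside H3K4me1 in 28.8%. H3K4me3 summits were flanked in 2.08% (1.87 to 2.32), and 86.4% had no H3K4me1 peak within 2 kb. None of 3418 H3K27me3 summits was flanked, which allows a share of up to 0.0878% by the limit of 3 counts and 0.112% by the Wilson limit used for the other shares. With H3K4me1 peaks of −log10 p of at least 15 alone, the flanked shares were 30.4% for FLI1, 16.7% for MTA2, 3.83% for H3K27ac and 1.24% for H3K4me3. The strongest quintile of FLI1 peaks by fold enrichment was flanked in 60.3%, the next quintiles in 42.6%, 32.1% and 31.4%, and the weakest in 37.4%. For RBBP4 the share was 9.76% in the weakest quintile and 34.5% in the strongest, for CHD4 15.3% and 34.9%, and for HDAC2 9.62% and 26.2%. MTA2 varied less, with 24.4% in the weakest quintile, 22.7% to 23.3% in the next 3 and 29.0% in the strongest. Near starts the pattern was scarce, with 11.3% of 133 FLI1 summits, 3.18% of MTA2 summits and 1.94% of HDAC2 summits flanked.

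The gap between flanking H3K4me1 peaks was wider at FLI1 than at the NuRD subunits. Its median was 857.5 bp (quartiles 594.75 and 1245.75) at the 636 flanked FLI1 summits, 617 bp at CHD4, 583 bp at HDAC2, 571 bp at MTA2 and 631.5 bp at RBBP4. At flanked H3K27ac and H3K4me3 summits it was wider still, 1151 and 1705 bp. NuRD summits within 250 bp of a FLI1 summit had median gaps of 802.5 to 855 bp, and those farther from FLI1 523 to 579 bp. For MTA2 these were 819 bp (588 and 1185, 517 summits) near FLI1 and 523 bp (338 and 860, 2776 summits) farther away, so the quartile ranges overlapped. The higher of the flanking peaks had a median of 7.43 in fold enrichment at FLI1 and the lower 5.53, and the median ratio within a pair was 1.27. That ratio was 1.26 to 1.28 for the other anchors, close to the value at FLI1.

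Seen from the H3K4me1 list, many short gaps between neighbouring peaks held a NuRD summit. Gaps of 500 to 1000 bp numbered 2600, and 55.3% of them held a summit of at least 1 NuRD subunit, 10.7% a FLI1 summit and 14.9% an H3K27ac summit. Gaps of up to 250 bp held a NuRD summit in 18.4% and gaps of 2000 to 5000 bp in 23.6%. Since longer gaps offer more room, density is the fairer measure. MTA2 summits reached 947 per Mb in gaps of 250 to 500 bp and 636 per Mb in gaps of 500 to 1000 bp, against 60.2 per Mb inside H3K4me1 peaks and 51.8 per Mb in gaps of 2000 to 5000 bp. FLI1 summits reached 151 per Mb in gaps of 500 to 1000 bp, against 1.39 per Mb inside H3K4me1 peaks. H3K27ac summits were densest inside the peaks, at 269 per Mb. H3K4me3 summits reached 49.8 per Mb in gaps of 1000 to 2000 bp and 5.09 per Mb inside the peaks.

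Direct overlap of the peaks, with at least 1 shared bp, gave a simpler picture. H3K27ac overlapped 8551 H3K4me1 peaks, or 27.4% (26.9 to 27.9), and shared 24.9% of their bases. HDAC2 overlapped 18.9% (18.5 to 19.4), CHD4 16.6%, MTA2 15.5% and RBBP4 8.83%, and these 4 shared 1.86% to 5.51% of the bases. With at least 50% of the H3K4me1 peak covered, the share was 20.3% for H3K27ac and at most 2.23% for each NuRD subunit. H3K4me3 overlapped 798 peaks, or 2.55% (2.38 to 2.73), FLI1 130 peaks (0.416%) and H3K27me3 11 peaks (0.0352%). The last 2 lists are small, with 1561 FLI1 peaks over 0.479 Mb and 3420 H3K27me3 peaks over 2.38 Mb, which limits these shares. Seen from the other lists, 37.2% of H3K27ac, 8.01% of FLI1 and 0.292% of H3K27me3 peaks overlapped H3K4me1. By the other histone marks 22278 peaks (71.3%) had none, 8165 (26.1%) had H3K27ac alone, 386 had H3K4me3 and H3K27ac, 407 had H3K4me3 alone and 11 had H3K27me3. No other list of the 8 overlapped 17497 peaks (56.0%), and none came within 1 kb of 12340 (39.5%). At least 1 NuRD subunit overlapped 9245 peaks (29.6%), and all 4 overlapped 1431 (4.58%).

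Peaks that shared H3K27ac were higher, wider and more often beside FLI1. Median fold enrichment was 6.30 (quartiles 5.29 and 7.52) with H3K27ac and 5.90 (5.06 and 6.85) without, and median width 755 and 518 bp. The difference in median fold enrichment, 0.393, was 0.117 among peaks with a −log10 p of at least 15. A FLI1 peak lay within 1 kb of 15.1% of the peaks with H3K27ac alone and of 1.63% of those with no other histone mark. NuRD overlapped 52.1% of the former and 21.5% of the latter. Peaks with H3K4me3 alone had the lowest median fold enrichment of the classes, 5.46, and a median width of 496 bp. The number of NuRD subunits went with height, from a median of 5.91 with none through 6.08, 6.30 and 6.47 to 6.56 with all 4, and with width, from 513 to 980 bp. H3K27ac overlapped 18.8% of peaks without NuRD and 59.2% of those with all 4 subunits.

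For H3K27ac and MTA2 the share of overlap was larger in each wider quintile but less evenly through the quintiles of height. H3K27ac overlapped 23.04% of the lowest quintile by fold enrichment, 24.0% of the middle quintile and 39.3% of the highest. By width it overlapped 14.1% of the narrowest quintile and 47.8% of the widest. MTA2 went from 11.1% to 26.6% by height and from 5.42% to 30.8% by width. The H3K4me3 share was lower among higher peaks, from 3.49% to 1.55%, and stayed between 2.45% and 2.70% over the quintiles of width. A wider peak has more bases to overlap with. Within the middle quintile of width the H3K27ac share was 23.4% for the lowest and 28.9% for the highest peaks. In that width class the MTA2 shares were 11.3% and 17.6%, and those of HDAC2 18.6% and 18.9%. The groups by height also differed in local background, recovered from fold enrichment and p. Its median was 6.75 reads in the lowest quintile and 3.36 in the highest, and 6.85 and 3.01 within the middle quintile of width. Height is thus not a measure of signal alone, and the part of background in these shares was not tested.

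**Figure D3:**
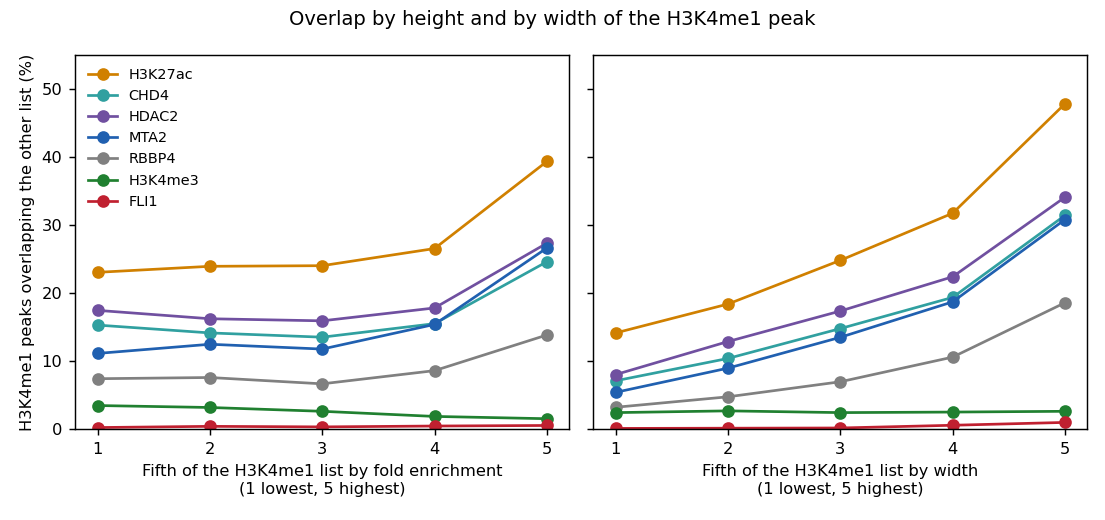
Share of H3K4me1 peaks that overlap 7 other lists (vertical axis, %), in 5 equal groups by fold enrichment (left) and by width (right). By width H3K27ac runs from 14.1% to 47.8%, while by height it stays near 23 to 24% up to the middle quintile and reaches 39.3% in the highest. Median local background also differs by height, with 6.75 reads in the lowest quintile and 3.36 in the highest.

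H3K4me1 peaks came in groups. The gap to the next peak had a median of 8.33 kb, and 28.6% of gaps were at most 1 kb. Merging peaks at most 5 kb apart gave 17476 clusters. Of these 10212 were single peaks, 7264 held 2 or more, 794 held 5 or more and 64 held 10 or more, up to 20. Among peaks with a −log10 p of at least 15, 4387 clusters held 2 or more. Clusters of 2 or more took in 67.3% of all peaks. Members of clusters of 10 or more overlapped H3K27ac in 52.1%, against 14.6% of single peaks, and CHD4 in 27.6% against 8.79%. FLI1 lay within 1 kb of 9.84% and 1.91%. Median fold enrichment was 5.88 in these large clusters and 5.99 for single peaks, over median local backgrounds of 5.40 and 3.90 reads. Members of large clusters were thus not higher in fold enrichment, although they were wider (703.5 against 506 bp).

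Of the 10 clusters of greatest covered length, 8 lay in protein-coding genes. The first by covered length lay 140 kb from LRATD2 on chromosome 8 (126373435 to 126412627, GRCh38), outside protein-coding genes, with 11 peaks that covered 27.7 of 39.2 kb. Its fold enrichments ran up to 6.87 with a median of 4.31, over a high local background of 25.8 reads, and it held 14 H3K27ac, 16 CHD4 and 1 FLI1 peaks. In JAK1, a cytokine receptor kinase, 17 peaks covered 24.9 kb (chromosome 1, 64888916 to 64929356), with fold enrichments up to 10.3. In HDAC9, a class IIa deacetylase, 20 peaks covered 24.6 kb (chromosome 7, 18515286 to 18558353) beside 16 H3K27ac peaks. A cluster of 16 peaks lay 370 kb from MTX2, the neighbour of the HOXD genes (chromosome 2, 176639174 to 176689668). RREB1, a zinc finger factor that responds to RAS, held 19 peaks over 21.2 kb with 5 H3K27ac and 4 HDAC2 peaks and no CHD4, MTA2, RBBP4 or FLI1 peak. BMF, a pro-apoptotic BH3-only gene, and UNC5B, a netrin receptor, held 20 peaks each, with 13 and 12 H3K27ac peaks. The others lay at HOXC4, HOXC5, HOXC6 and HOXC8 (9 peaks over 19.4 kb), at BMPER, which binds bone morphogenetic proteins (12 peaks and 2 FLI1 peaks), and at STRA6, a retinol transporter, with CCDC33 (18 peaks). No H3K27me3 peak lay in any of these 10 clusters, and that list covered 2.38 Mb in all.

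The widest single peak, 7633 bp, lay over HOXC4, HOXC5 and HOXC6 (chromosome 12, 54021205 to 54028837), homeobox genes of body patterning, with a fold enrichment of 8.22. The other wide peaks lay 45.4 kb from MEIS1, a homeobox partner of HOX proteins (7258 bp, fold enrichment 9.68), in SUFU, an inhibitor of Hedgehog signalling (6695 bp), in TFAP2B, a neural crest factor (6689 bp), over the start of NEUROD6, a neuronal basic helix-loop-helix factor (6568 bp, fold enrichment 10.03), and 13.4 kb from SLC38A2, an amino acid transporter (6514 bp). Next came a peak in the LRATD2 cluster (6381 bp) and peaks in ZNRF2 (5893 bp) and JARID2 (5795 bp). A FLI1 peak overlapped the LRATD2 peak and lay within 1 kb of that at NEUROD6. Each of the wide peaks named here overlapped CHD4, and each but that over HOXC4 to HOXC6 overlapped H3K27ac. In the widest quintile of the list these shares were 31.4% for CHD4 and 47.8% for H3K27ac.

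The peaks of highest fold enrichment were a different set from the widest. Among them were a peak 71.3 kb from SLC4A3, an anion exchanger (chromosome 2, 219702354 to 219703553, 14.7), and a peak 15.6 kb from C14orf180 (14.3). Further peaks lay in TBC1D4, a Rab regulator of glucose transport (14.04, with all 4 NuRD subunits and no H3K27ac), and in LOXL1, an elastin cross-linking enzyme (13.9). Peaks 360 kb from HNRNPA3, in ADK, in RXRA, a retinoid receptor (13.6), 25.6 kb from LOC105369591, and in BTRC, a ubiquitin ligase subunit (13.3), were also in this set. The widths of these named peaks ran from 823 to 3440 bp and their local backgrounds from 2.13 to 4.23 reads. FLI1 lay within 1 kb of none of them. It did so for 5.17% of all H3K4me1 peaks and 7.70% of the highest quintile, so few or none would fall in so small a set. MTA2 overlapped or lay within 1 kb of each but that in ADK, against 34.2% of all peaks and 46.5% of the highest quintile.

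Genes differed in how many H3K4me1 peaks lay in their body or within 10 kb of it. At least 1 peak was found for 6980 of 20033 protein-coding genes (34.8%), and at least 5 for 1551 (7.74%). A peak that overlapped H3K27ac was found for 2911 (14.5%). Long genes had more, with 21.9% of genes up to 10 kb long and 59.7% of those of 100 to 300 kb having a peak. Peaks per 100 kb did not follow length in this way, with means of 1.73 up to 10 kb, 1.598 at 10 to 30 kb, 1.52 at 30 to 100 kb, 1.74 at 100 to 300 kb and 1.11 above 300 kb. RERE, a nuclear receptor coregulator, had 70 peaks, of which 12 overlapped H3K27ac. JARID2, an accessory subunit of the Polycomb complex PRC2, had 68, or 22.98 per 100 kb. HDAC9 had 66 peaks and NCKAP5 54. SOX6, an SRY-box factor activated by the fusion, had 53 peaks, with 17 over H3K27ac, and 3 FLI1 peaks in the same window. RAD51B, a recombination gene, and GSE1, a chromatin coregulator, had 52 each, GPC6, a glypican, 44, and TENM2, an adhesion protein, and MLLT3, a reader of acetylated histones, 42 each. MLLT3 had 3 of its 42 peaks over H3K27ac and no FLI1 peak, whereas HDAC9 had 30 of 66 and 3 FLI1 peaks.

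Gene lists were then counted in the same way, beside the 34.8% of all genes. They were written from literature and textbook knowledge, but with earlier results of these data known. Genes known to be activated by EWSR1::FLI1 had a peak in 22 of 30 (73.3%), with a median of 2.5 peaks against 0 over all genes, and 18 had a peak over H3K27ac. After SOX6 came JAK1 with 30 peaks (10 over H3K27ac), PRKCB, a protein kinase C, with 27 (14 over H3K27ac), and KIT, a receptor kinase, with 9. No peak was found at ABCA6, AURKA, ID2 or 5 others. Genes known to be repressed by the fusion had a peak in 14 of 20, with a median of 1.5, and 6 had a peak over H3K27ac. TNC, a matrix protein, had 9 peaks, CALD1, which binds actin, 7, IGFBP5, which binds growth factors, 6, and TGFBR2, the receptor of TGF-beta, 6. Of these TNC had 3 peaks over H3K27ac, IGFBP5 had 1, and CALD1 and TGFBR2 had 0. A FLI1 peak lay in the window of 13 of the 30 activated genes, 0 of the 20 repressed genes and 837 of the 20033 protein-coding genes, a share at which 20 genes would hold few or none. The lists differ in gene length, with medians of 37.8 kb for activated and 16.3 kb for repressed genes. Of all genes, 39.4% of those of 30 to 100 kb and 28.0% of those of 10 to 30 kb had a peak.

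Core transcription factors of Ewing cells, with a median length of 103 kb against 24.1 kb for all genes, had a peak in 10 of 15 (66.7%, against 59.7% of all genes of 100 to 300 kb), with 17 at ETV6, 12 at KLF15 (8 over H3K27ac) and 9 at TCF4, beside the 53 of SOX6. FLI1 and ERG, ETS genes that partner with EWSR1 in the fusions, and EGR2, the zinc finger gene of the Ewing susceptibility locus, had none. Among writers and readers of enhancer marks, with a median length of 92.3 kb, 8 of 16 had a peak (50%, against 39.4% of all genes of 30 to 100 kb). They were led by RCOR1, the corepressor that binds the demethylase KDM1A, with 11. Others included the acetyltransferase CREBBP with 7 and the remodeller ARID1A with 6. EP300, KDM1A and KDM5B had none, and of the main H3K4me1 writers KMT2C had 5 and KMT2D none. NuRD subunit genes, with a median length of 38.1 kb, had a peak in 8 of 15 (53.3%, against 39.4% of all genes of 30 to 100 kb). GATAD2A had 9, GATAD2B, CHD5 and CHD3 had 4 each, and CDK2AP1, HDAC1 and HDAC2 had none.

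HOX genes, which pattern the body axis, had a peak in 14 of the 19 listed (73.7%). They had 9.77 peaks per 100 kb against 1.502 over all genes, and a median length of 3.79 kb. The list was not the whole family, and lacked HOXC4 and HOXC5. HOXD3 had 8 peaks, HOXC6 7, HOXC8 5 and HOXB4 5. HOXA10 and HOXA13 were among those with none. Neighbouring HOX genes share peaks, since their windows overlap. A shared peak was counted for each such gene, in the 14 and in the peaks per 100 kb. Axon guidance and adhesion genes, with a median length of 406 kb, had a peak in 13 of 20 (65.0%), at 1.39 peaks per 100 kb. Of all genes above 300 kb, 63.5% had a peak, so the list was near its length class in that share. Their mean of 1.11 peaks per 100 kb averages over genes, whereas the 1.39 pools the peaks and lengths of the list. These densities were therefore not compared. EFNA5, an ephrin, had 33 peaks, SEMA3A, a secreted semaphorin, 27, NLGN1, a synaptic adhesion protein, 22, and PLXNA2, a semaphorin receptor, 21 with 18 H3K27me3 peaks in the same window. CDH2, CNTN4 and DCC had none.

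Lists of markers of other lineages had a peak in 15.4% to 38.9% of their genes, beside 34.8% of all genes. Median gene length was 49.7 kb for mesenchymal, 7.65 kb for housekeeping and 10.4 to 13.7 kb for the other lists here. Of all genes, 21.9% of those up to 10 kb had a peak, 28.0% of those of 10 to 30 kb and 39.4% of those of 30 to 100 kb. Neural crest and neuronal genes had a peak in 7 of 18 (38.9%), led by TFAP2B with 7, TFAP2A with 5, SNAI2 with 4 and NCAM1 with 2, and CHGA and DCX were among those with none. Mesenchymal genes had one in 6 of 16 (37.5%), with 5 at PDGFRB, 3 at RUNX2 and 2 each at PRRX1 and PRRX2. Epithelial and liver genes had one in 6 of 16, with 5 each at KRT8 and GRHL2, and none at ALB, CDH1 or EPCAM. Blood genes had one in 4 of 15 (26.7%), among them PTPRC, which encodes CD45, with 11 peaks of which 6 overlapped H3K27ac. Skeletal muscle genes had one in 2 of 13 (15.4%), MYMK with 5 and PAX7 with 3. Housekeeping genes had one in 7 of 18 (38.9%) but a peak over H3K27ac in 1 (5.56%), against 14.5% of all genes, while 17 of the 18 had H3K4me3, against 13419 of all 20033 genes.

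**Figure D4:**
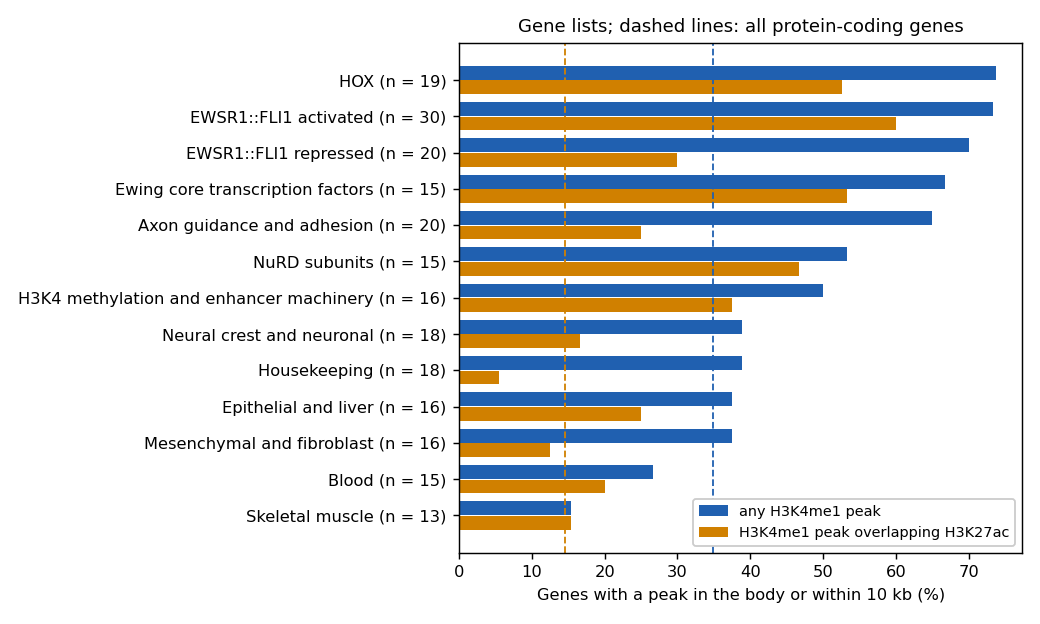
Share of genes in each list (horizontal axis, %) with any H3K4me1 peak (blue) and with an H3K4me1 peak that overlaps H3K27ac (orange) in the body or within 10 kb, with dashed lines for all protein-coding genes at 34.8% and 14.5%. HOX, fusion-activated and fusion-repressed genes lie furthest right for any peak, and an acetylated peak is found for 18 of 30 fusion-activated and 6 of 20 repressed genes.

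Chromosomes differed in the number and height of their peaks. Chromosome 13 had 3.15 peaks per protein-coding gene, chromosome 6 2.75, chromosome 2 2.266, and chromosomes 7 and 8 2.22 each. Chromosome X had 0.525 and chromosome 19 0.312. These ratios also depend on how many genes a chromosome holds. Chromosome 13 had 1064 peaks and 338 genes, and chromosome 19 had 453 peaks and 1451 genes. Peaks per Mb of chromosome were not computed. The local background at each peak, recovered from its deposited fold enrichment and p, had a median of 4.55 reads over all peaks. By chromosome it ran from 2.64 on X to 5.75 on chromosome 8. Across the 23 chromosomes the rank correlation of peaks per gene with background was 0.789 (Pearson 0.644), given as a description of points from 1 library. Median fold enrichment ran the other way, from 6.65 on X to 5.57 on chromosome 8, which the recovery of background from fold enrichment itself ties together. The part of background in the number of peaks was not tested. Chromosome 6 held 9.24% of all peaks and 6.70% of the 5000 highest, and chromosome 8 5.07% and 4.26%.

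**Figure D5:**
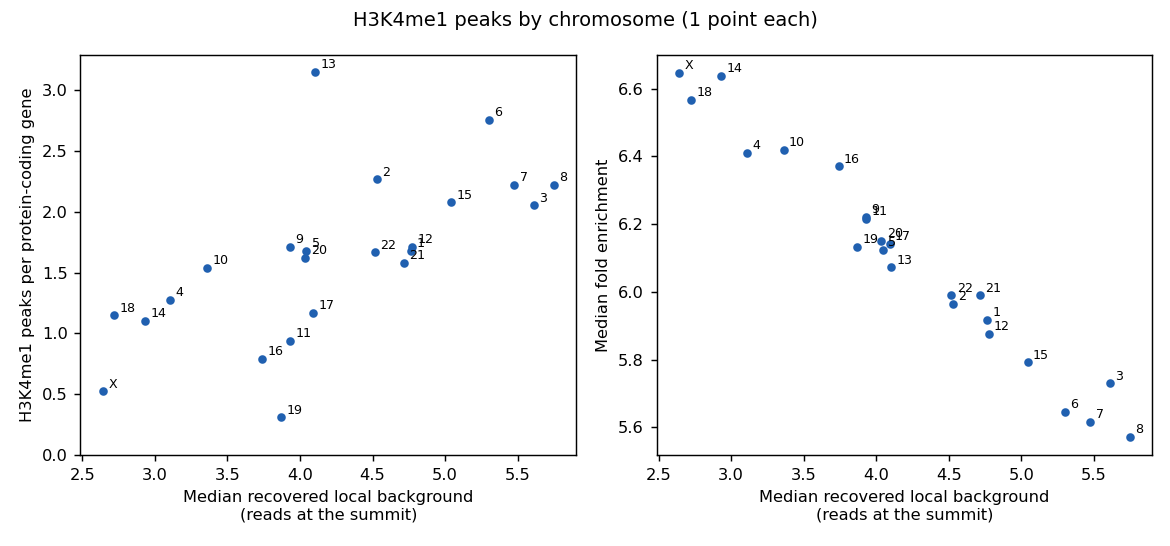
Peaks per protein-coding gene (left) and median fold enrichment (right) against the median recovered local background in reads (horizontal axes), 1 point for each of 23 chromosomes. Chromosomes 3, 6, 7 and 8 lie at high background with more than 2 peaks per gene, X lies at the low end with 0.525, and chromosome 13 stands above the rest at 3.15.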

How the data were processed

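The authors deposited 1 peak list per target. Per the submitters' processing notes, the tools were BWA 0.7.17, bedtools 2.27.1, deepTools 3.2.1, FastQC 0.11.7, SAMtools 1.9 and Trimmomatic 0.36, with GRCh38. Peak names in the deposited lists carry the name MACS2. Its version, its control and any pooling were not found in the labels. The fold enrichment of each peak's summit is the authors' deposited value, and so is its −log10 p, which was at least 9.01 for H3K4me1.

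Python 3.11.15, pandas 2.3.3, numpy 2.4.6, scipy 1.17.1 and matplotlib 3.10.9 were used. Overlap needed 1 bp, clusters joined gaps up to 5 kb and flanks reached 2 kb. Local background was solved from fold enrichment and p under the usual MACS2 definitions, and checked on simulated data. The H3K4me1 numbering skipped 83 peaks, and 3 peaks had a summit outside the interval, for which the midpoint was used. A further count of 3 peaks lay outside the assembled chromosomes. RefSeq GRCh38.p14 gave 22198 starts for 15842 of 20033 protein-coding genes (79.1%), and both annotated ends stood in for the start of the other 4191. All 225 symbols of the 13 gene lists matched. Named were the 10 peaks and clusters of highest fold enrichment, width or covered length, the 10 genes with most peaks, and per list up to 4 genes with most peaks and 3 without, in alphabetical order. KMT2C and KMT2D were added after their values were seen. Some members that this rule selects are not reported here. The peaks and gene lists were chosen with earlier results of these data known. No test was made, since each target had 1 list. Alternatives varied the p threshold, the overlap and the windows.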

Additional observations from a re-analysis of the deposited data

How the results depend on the processing

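Of the recomputed values 41 moved by less than their counting interval or 1.5 times, and 70 moved by more. The differences in fold enrichment and in the ratio of observed to expected CG kept their sign. The other values were shares, counts and medians, which cannot change sign. The causes were not tested. No paired analysis was possible because each target had 1 list. Read depth limits the list in a way that cannot be measured from peaks.

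With H3K4me1 peaks of −log10 p of at least 15, median fold enrichment was 6.60, 71.9% of the strongest quintile were wider than the list median, 4387 clusters held 2 or more peaks, with 59.3% of peaks, and overlap was 34.5% for H3K27ac, 0.611% for FLI1, 24.7% for HDAC2, 20.7% for MTA2, 11.8% for RBBP4 and 21.8% for CHD4. Flanked shares were then 30.4% for FLI1, 16.7% for MTA2, 16.2% for CHD4, 3.83% for H3K27ac and 1.24% for H3K4me3, the difference in fold enrichment with H3K27ac was 0.117, and chromosomes 8 and 6 held 5.46% and 9.68% of peaks.

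Among the 5000 peaks of highest fold enrichment, 4.38% lay within 1 kb of a start and 63.0% in gene bodies, and overlap was 41.4% for H3K27ac, 1.44% for H3K4me3, 0.66% for FLI1, 28.9% for HDAC2, 28.6% for MTA2, 14.6% for RBBP4 and 25.9% for CHD4. Chromosomes 8, 6 and 7 held 4.26%, 6.70% and 4.98% of them, and 2519 genes had a peak.

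With at least 50% of the H3K4me1 peak covered, overlap was 20.3% for H3K27ac, 0.762% for H3K4me3, 0% for FLI1, 1.56% for HDAC2, 0.659% for MTA2, 0.387% for RBBP4 and 2.23% for CHD4, and the fold difference with H3K27ac was 0.281. With the H3K4me1 summit inside the other peak, the shares were 22.9%, 0.874%, 0.0064%, 2.85%, 1.29%, 0.787% and 3.82% in the same order. With −log10 p of at least 15 in the other lists, they were 23.2%, 2.36%, 0.227%, 16.6%, 12.1%, 5.91% and 13.2%, and flanked shares were 48.4% for FLI1, 27.2% for MTA2 and 28.2% for CHD4.

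Ranked by −log10 p, 89.2% of the strongest quintile were wider than the median, and the difference with H3K27ac was 4.41 in −log10 p. Within 5 kb of a start lay 16.1% of peaks, and 3.65% of summits lay within 1 kb. Chosen after the data were seen, starts of the promoter table alone gave 3.54% and either end of every gene 5.43%. Clusters of 2 or more held 58.0% of peaks with gaps up to 2 kb and 77.1% with gaps longer than the 5 kb used. Flanks within 1 kb gave 34.1% for FLI1, 21.5% for MTA2, 20.4% for CHD4, 3.72% for H3K27ac and 0.889% for H3K4me3. H3K4me1 within 1 kb of a promoter window, without H3K4me3, gave 518 windows.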

Other observations

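H3K4me1 peaks were unevenly spread along chromosomes. In windows of 5 Mb with at least 1 peak the median was 45 peaks. The fullest window, chromosome 8 from 125 to 130 Mb, held 289 peaks and 9 protein-coding genes, and it contains the cluster of greatest covered length. Its peaks were low, with a median fold enrichment of 4.01, and their local background had a median of 18.8 reads against 4.55 over all peaks. The part of background in that number was not tested. The next window, chromosome 12 from 50 to 55 Mb, which holds the HOXC genes, had 212 peaks at a background of 5.71 reads. Chromosome 8 from 140 to 145 Mb followed with 197, chromosome 15 from 75 to 80 Mb with 193, and chromosome 7 from 15 to 20 Mb, which holds HDAC9, with 184.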
